A study of Drosophila melanogaster with 6 samples.

Results

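Nuclear transcripts that lost most of their level in flight muscle depleted of M1BP formed a set of 52 genes, out of 17494 genes in the count table. They were chosen on the measured contrast itself. A gene entered when its mean over the WT libraries was 5 CPM or more, when its mean over the M1BP RNAi libraries was at least 3-fold lower, and when every M1BP RNAi library lay below every WT library. CPM here is a gene's count divided by the library's sum over genes outside the mitochondrial genome, times 1000000. Subunits of respiratory complex I (symbols starting ND-), mitochondrial ribosomal proteins (mRp) and 10 named genes were left out. The folds and levels of the 52 genes are therefore descriptions and carry no test.

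RNA was sequenced from the dorsolongitudinal indirect flight muscles of Drosophila melanogaster pupae at 64 h after puparium formation (APF), in 3 M1BP RNAi and 3 WT libraries. In the M1BP RNAi pupae a UAS hairpin against M1BP, the weaker of the lines used in the study, was driven by Mef2-GAL4, and the WT pupae carried the same driver without the hairpin. Mef2-GAL4 is active in all muscles of the animal and is not restricted to the flight muscles. The paper adds that this driver can also act in some neurons, and that Mef2 is expressed in the fat body as well. There, M1BP RNAi with a pan-neural or a fat body driver gave no sarcomeric or mitochondrial phenotype in flight muscle. All animals were staged at 25 °C, and each library pooled hand-dissected muscles of several pupae whose sex the labels do not give.

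M1BP, a zinc finger protein, recognises Motif 1, a DNA element close to the start of many broadly expressed Drosophila genes, where it is associated with paused RNA polymerase II. Its targets are known to include housekeeping and metabolic genes. Indirect flight muscle is a highly aerobic tissue that burns carbohydrate delivered as trehalose, so transcripts for sugar use, electron carriers and oxidant removal belong to its normal equipment. The 52 genes also include many with roles shared by all cells, such as mRNA export, RNA processing, membrane sorting and cofactor synthesis.

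The libraries held 42215400 to 54890681 counts, of which 23995145 to 40493930 lay on nuclear genes, and 3 counts in a library corresponded to 0.0741 to 0.125 CPM. Genes of the mitochondrial genome took 15.1% to 23.4% of counts in M1BP RNAi and 26.2% to 44.2% in WT, and were therefore kept out of the CPM sum. M1BP itself, a check of the labels, had 4.65 ± 0.719 CPM in M1BP RNAi and 9.75 ± 1.27 CPM in WT (SD, n = 3 each), or 47.8% of WT, and the call was lost when any 1 library was left out (edgeR's quasi-likelihood test with Benjamini-Hochberg adjustment, adjusted p = 9.54e-04 with all libraries and 0.00198 to 0.00841 without one). Flight muscle markers summed to 171207 to 184378 CPM in M1BP RNAi and 189534 to 207793 CPM in WT, and 1 of the 14, the flight muscle actin Act88F, was called lower (log2 fold change -0.70, adjusted p = 7.59e-04, and 0.00195 to 0.00901 without any 1 library). Of these 14 markers, 9 were lower and 0 higher at an unadjusted p under 0.05, and DESeq2 called 1 lower and 0 higher. Over all 8806 genes tested by edgeR, 22.5% were lower and 18.9% higher at that unadjusted p, and DESeq2 called 5.38% lower and 6.48% higher. Haemocyte markers summed to 65.1 to 93.5 CPM in M1BP RNAi and 38.0 to 47.3 CPM in WT, and glial markers to 133 to 146 CPM in M1BP RNAi and 77.8 to 115 CPM in WT. On this scale the median log2 ratio of all nuclear genes tested was already 0.30. In the edgeR fit with TMM scaling, the 3 tested glial markers had log2 fold changes of 0.14 to 0.29. The 6 tested haemocyte markers ran from -0.41 to 1.12. Fat body, neuronal, tracheal and tendon, and epidermal markers had ranges that overlapped between the groups. None of the markers outside muscle was called by edgeR. At an unadjusted p under 0.05, 1 fat body and 2 haemocyte markers were higher and 1 neuronal marker was lower, and DESeq2 called 1 haemocyte marker higher. The part of these other cells in the results was not tested, and in bulk muscle RNA fewer cells and less RNA per cell cannot be told apart.

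WT replicate 3 stood apart from the other WT libraries. The male dosage compensation RNA roX1 stood at 47.3, 45.6 and 94.7 CPM in the M1BP RNAi libraries, against 0.0494, 0.250 and 27.7 CPM in WT replicates 1, 2 and 3. WT replicate 3 was thus the only WT library in which roX1 came near the M1BP RNAi range. roX2, also a dosage compensation RNA, stood at 3.73, 5.84 and 8.70 CPM in the M1BP RNAi libraries. It stood at 0, 0 and 5.98 CPM in WT replicates 1, 2 and 3. The sex of the pooled pupae was not tested. A difference in sex between M1BP RNAi and WT replicates 1 and 2 cannot be told apart from M1BP RNAi. Of the nuclear genes that were 3-fold or more lower on the means, 12 were not admitted because the groups overlapped. In 7 of these (CG13138, CG14275, Culd, ru, CR45458, Gyc88E and Evi5) WT replicates 1 and 2 lay above every M1BP RNAi library while WT replicate 3 did not. CG13138 had 0.139, 0.151 and 0.0590 CPM in the M1BP RNAi libraries, against 24, 23.9 and 0.125 CPM in the WT libraries. The requirement that the libraries separate kept such genes out.

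The 52 transcripts remained at 2.81% to 33.1% of WT, with a median of 23.5%. There were 4 at 10% or less, 12 between 10% and 20%, and 36 above 20%. All 52 were left with a smaller share than M1BP itself, which the 3-fold limit fixed in advance, since M1BP stood at 47.8% of WT. Their WT means spanned 5.52 to 2678 CPM, with 10 genes at 100 CPM or more and 9 under 10 CPM. The highest M1BP RNAi library was 4.10% to 53.0% of the lowest WT library. Summed, the 52 took 0.140%, 0.132% and 0.141% of nuclear counts in the M1BP RNAi libraries, against 0.583%, 0.669% and 0.536% in the WT libraries. The edgeR fit over all 8806 genes tested called 46 of the 52 lower, where 2.88% of all genes tested were called lower and 2.2% higher (adjusted p of 0.001 or less and at least 1.5-fold). Since the same contrast chose the genes, nothing is read from that count.

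**Figure D1:**
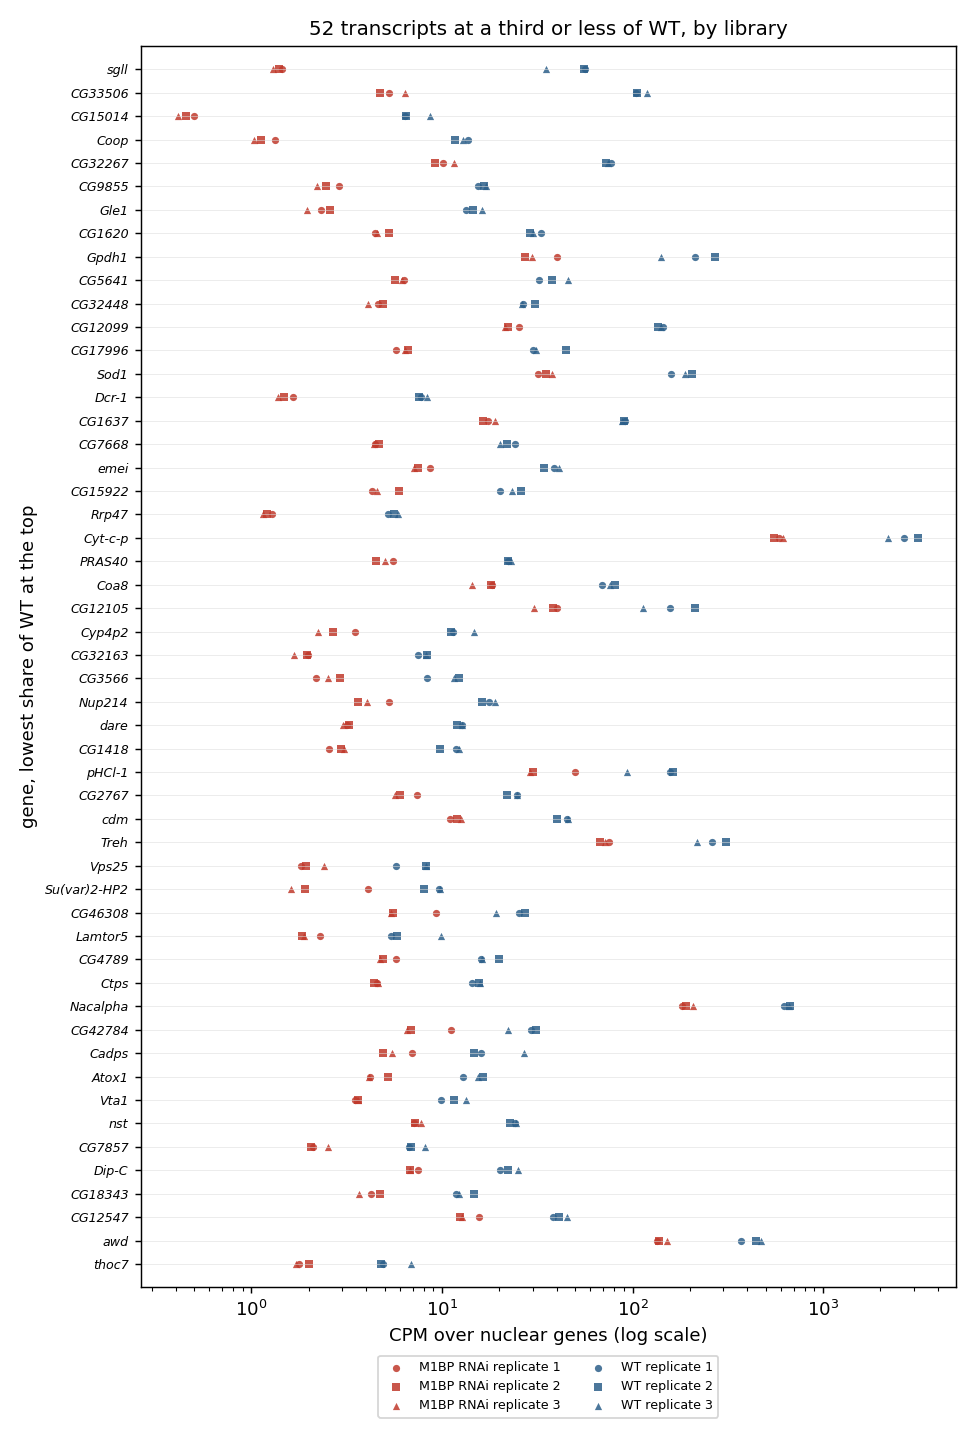
CPM over nuclear genes (log scale) of each of the 52 transcripts in the 3 M1BP RNAi libraries (red) and the 3 WT libraries (blue), 1 symbol per library, ordered from sgll at 2.81% of WT to thoc7 at 33.1%. The separation of red and blue was required by the way the genes were chosen. What can be read is the spread within a group. As SD over mean, which the log axis does not show directly, it is largest in M1BP RNAi for Su(var)2-HP2. In WT it is largest by that measure for Lamtor5 and Cadps.

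At the edge of the ratio threshold, thoc7, awd and CG12547 lay just inside at 33.1%, 32.9% and 32.8% of WT. CheB42c and JMJD4 lay just outside at 33.8% and 34.4%, followed by mRpL34 at 35.1%. These were taken only from genes whose libraries did not overlap between the groups. The threshold thus falls within a run of neighbouring values. A further 9 genes met the values and were left out by name. They included UQCR-C2, a complex III subunit, at 5.10% of WT, Syt4, a synaptotagmin, at 3.78%, and PolG1, the catalytic subunit of the mitochondrial DNA polymerase, at 13.7%.

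**Figure D2:**
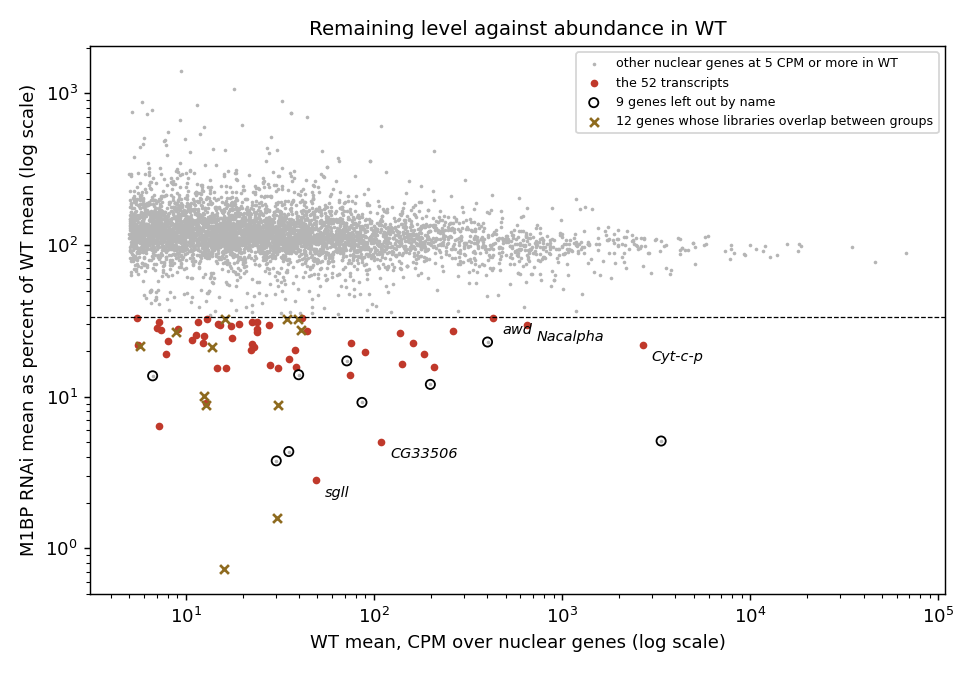
M1BP RNAi mean as percent of WT mean (log scale) against the WT mean in CPM over nuclear genes (log scale). The 52 transcripts (red) lie below the dashed threshold line at WT means of 5.52 to 2678 CPM. Open circles are the 9 genes left out by name, crosses the 12 genes whose libraries overlap, and grey points the other nuclear genes at 5 CPM or more in WT. The median over all 5249 genes at 5 CPM or more is 115%.

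The scale matters for the size of these differences. On CPM over nuclear genes the median log2 ratio of all nuclear genes tested was 0.30, so a typical gene read slightly higher in M1BP RNAi, whereas the edgeR fit with TMM scaling put the median at -0.02. Relative to the typical gene, the 52 are therefore lower than their share of WT alone says. With TMM-scaled library sizes 73 genes met the same thresholds, all 52 among them. With the mitochondrial genome counted in the sum, 33 genes did, all of them among the 52.

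The lowest share of WT was that of sgll (chr3R:7810532-7811912, dm6), which encodes pyridoxine 5'-phosphate oxidase, the enzyme that makes the active form of vitamin B6. It had 1.45, 1.39 and 1.30 CPM in the M1BP RNAi libraries, against 56.4, 55.4 and 35.3 CPM in the WT libraries. The M1BP RNAi mean was 35.6-fold lower, and WT replicate 3 was the lowest WT library while still far above all M1BP RNAi libraries. An exon of sgll shares 99 bases with CG31473 on the same strand, which itself stood at 4.06% of WT, so reads of the pair may be partly shared.

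CG33506 (chr2R:14857447-14858640) came next. It had 5.26, 4.72 and 6.43 CPM in the M1BP RNAi libraries, against 104, 105 and 119 CPM in the WT libraries, a mean at 5.01% of WT. It was the only one of the 4 steepest with a WT level above 100 CPM. The gene is known by its number only, and no role is given here.

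CG15014 had 0.501, 0.454 and 0.413 CPM in the M1BP RNAi libraries, against 6.37, 6.46 and 8.65 CPM in the WT libraries. These M1BP RNAi levels were several times the detection floor of 3 counts, so the gene was low but counted. Coop, a corepressor that acts with the Wnt pathway factor Pangolin, had 1.34, 1.12 and 1.03 CPM in the M1BP RNAi libraries, against 13.7, 11.7 and 12.8 CPM in the WT libraries, a mean at 9.13% of WT. WT replicate 3 was the highest WT library for CG15014 and WT replicate 1 for Coop.

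A group of transcripts between 13.8% and 15.8% of WT followed. CG32267, a short transcript, had 10.1, 9.23 and 11.6 CPM in M1BP RNAi, against 77.3, 72.8 and 74.2 CPM in WT. CG9855, which the study's list of mitochondrial genes places under mitochondrial dynamics, had 2.87, 2.45 and 2.21 CPM in M1BP RNAi, against 15.4, 16.7 and 17.0 CPM in WT. CG1620 had 4.45, 5.27 and 4.57 CPM in M1BP RNAi, against 33.0, 29.1 and 30.2 CPM in WT. In these the 3 libraries of a condition differed little beside the gap between conditions. CG5641, the orthologue of the human double-stranded RNA binding factor ILF2, had 6.35, 5.69 and 6.13 CPM in M1BP RNAi, against 32.2, 37.6 and 45.5 CPM in WT, where replicate 3 was highest.

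Among transcripts per kilobase of exon, the set was led by Cyt-c-p (chr2L:16719932-16722644), the somatic cytochrome c that carries electrons between complexes III and IV. Its WT mean was 3932 CPM per kb, and the next were Nacalpha at 594 and awd at 592 CPM per kb. Cyt-c-p had 588, 554 and 615 CPM in the M1BP RNAi libraries, against 2668, 3165 and 2200 CPM in the WT libraries, a mean 4.57-fold lower. WT replicate 3 was the lowest WT library, and the lowest WT value was still more than 3 times the highest M1BP RNAi value. Coa8, whose human counterpart takes part in cytochrome c oxidase assembly, had 18.3, 18.1 and 14.4 CPM in M1BP RNAi, against 68.7, 80.5 and 76.4 CPM in WT. CG17996, listed by the study under oxidative phosphorylation, had 5.71, 6.66 and 6.40 CPM in M1BP RNAi, against 30.1, 44.6 and 31.1 CPM in WT. WT replicate 2 was the highest WT library for both genes.

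In all, 10 of the 52 (19.2%) are in the study's list of nuclear genes of mitochondrial function, beside 769 of the 5249 nuclear genes at 5 CPM or more (14.7%). The ND- and mRp genes are mitochondrial, and so are several genes left out by name, such as UQCR-C2, PolG1 and Bcs1. They were taken out of the 52 but not out of the 5249, so the shares cannot be compared directly. The share of the 52 does not cover all mitochondrial genes that were this low. The 10 include dare, the adrenodoxin reductase that passes electrons to iron-sulfur cluster synthesis and steroid hydroxylases, at 25.2% of WT. The lipid and vitamin categories of that list held CG2767 at 26.7% and CG3566 at 23.6%.

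Sugar use gave Gpdh1 and Treh. Gpdh1, the cytosolic glycerol-3-phosphate dehydrogenase of the flight muscle glycerol phosphate shuttle, had 40.4, 27.3 and 29.5 CPM in the M1BP RNAi libraries, against 212, 269 and 141 CPM in the WT libraries. Treh, the trehalase that splits trehalose into glucose, had 75.6, 67.8 and 71.7 CPM in M1BP RNAi, against 261, 311 and 217 CPM in WT. For both genes WT replicate 3 was the lowest WT library.

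Of 20 other tested genes of glycolysis, trehalose, glycogen and glycerol phosphate metabolism, 9 were called lower and 0 higher by edgeR, with a median log2 fold change of -0.78 beside -0.02 over all genes tested. At an unadjusted p under 0.05, 18 were lower and 0 higher, and DESeq2 called 15 lower and 0 higher. Glys, glycogen synthase, averaged 109 ± 6.64 CPM in M1BP RNAi and 217 ± 11.7 CPM in WT (SD, n = 3 each), for which edgeR gave -1.31 ± 0.08 on the log2 scale (SE) with an adjusted p of 1.03e-04, a call lost on leaving out WT replicate 1 or either of M1BP RNAi replicates 2 and 3 (up to 0.00157). Glyp, glycogen phosphorylase, averaged 1096 ± 42.1 CPM in M1BP RNAi and 1809 ± 76.9 CPM in WT, with a log2 fold change of -1.04 ± 0.07 and an adjusted p of 1.07e-04, lost without WT replicate 1 or any 1 M1BP RNAi library (up to 0.00183). The remaining 7 called genes, named after their values were seen, were Pfk, UGP, PyK, Pgm1, Pgi, Tret1-1 and AGBE. In all 9, every M1BP RNAi library lay below every WT library in CPM over nuclear genes. The calls came from the same libraries, so nothing is read from that separation. Leaving out single libraries cost most of these calls: Pfk and Glys kept theirs in 3 of the 6 fits without 1 library, Glyp and UGP in 2, and the other 5 in 1.

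**Figure D3:**
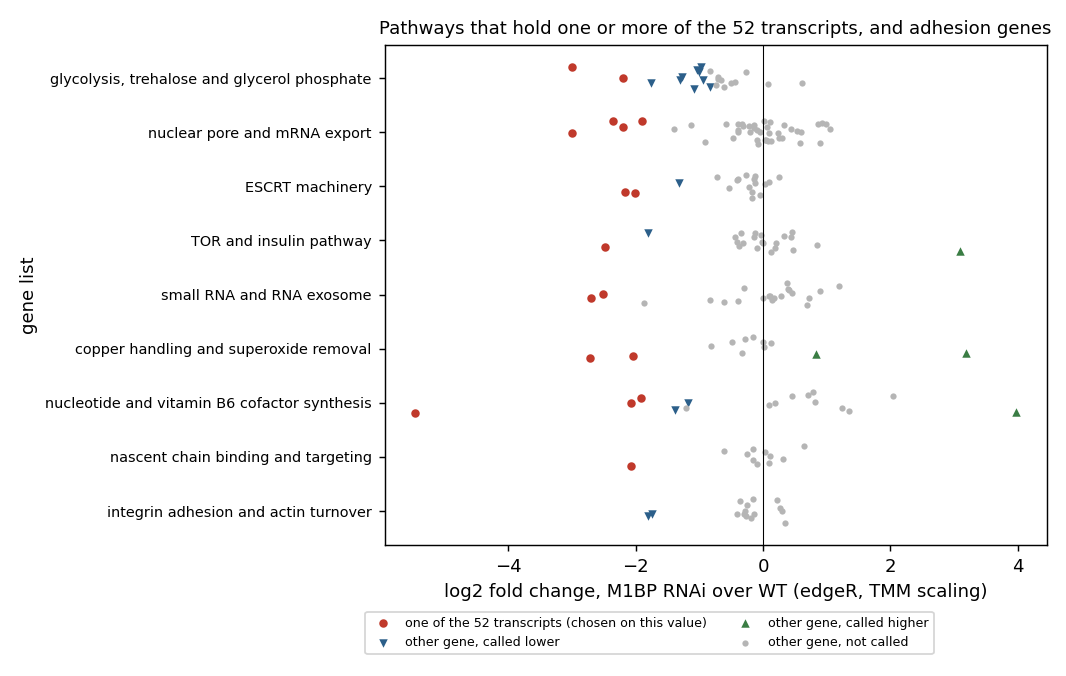
Log2 fold change of M1BP RNAi over WT (edgeR fit with TMM scaling) for the genes of 9 lists, 1 point per gene. Red points are members of the 52, which were chosen on this contrast. Blue triangles are other genes called lower, green triangles other genes called higher and grey points genes not called. Glycolysis genes lie mostly left of 0, with a median of -0.78 for the genes outside the 52, while those of the nuclear pore and mRNA export list centre on 0.02.

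mRNA export and nuclear transport contributed 4 of the 52. Gle1, which activates the export helicase at the pore, had 2.31, 2.57 and 1.95 CPM in the M1BP RNAi libraries, against 13.4, 14.5 and 16.2 CPM in the WT libraries. Nup214, the nucleoporin of the cytoplasmic pore face where Gle1 works, had 5.26, 3.63 and 4.04 CPM in M1BP RNAi, against 17.6, 16.3 and 19.1 CPM in WT. WT replicate 3 was the highest WT library for both genes. thoc7, a subunit of the THO complex that loads export factors on mRNA, had 1.78, 2.00 and 1.71 CPM in M1BP RNAi, against 4.91, 4.79 and 6.86 CPM in WT. cdm, an importin of the importin-13 type, had 11, 12 and 12.7 CPM in M1BP RNAi, against 45.2, 40.3 and 45.8 CPM in WT. Of the other 39 tested genes of pore and export edgeR called 0 in either direction, and the median of their log2 fold changes was 0.02. At an unadjusted p under 0.05, 6 were lower and 10 higher, and DESeq2 called 2 lower and 5 higher.

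RNA processing gave Dcr-1 and Rrp47. Dcr-1, the Dicer that cuts microRNA precursors, had 1.64, 1.48 and 1.39 CPM in the M1BP RNAi libraries, against 7.73, 7.54 and 8.30 CPM in the WT libraries. Rrp47, a cofactor of the nuclear exosome, had 1.28, 1.21 and 1.15 CPM in M1BP RNAi, against 5.19, 5.63 and 5.89 CPM in WT. In both genes the 3 libraries of a condition lay close together. Of 19 other tested genes of small RNA pathways and the exosome, edgeR called 0, with a median log2 fold change of 0.17. At an unadjusted p under 0.05, 4 were lower and 7 higher, and DESeq2 called 1 in each direction.

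Oxidant removal and copper handling gave Sod1 and Atox1. Sod1 (chr3L:11112281-11113740), the cytosolic copper-zinc superoxide dismutase, had 32.1, 35.0 and 37.7 CPM in the M1BP RNAi libraries, against 159, 204 and 189 CPM in the WT libraries. Atox1, a copper chaperone of the cytosol, had 4.17, 5.18 and 4.16 CPM in M1BP RNAi, against 12.8, 16.4 and 15.5 CPM in WT. Thus the enzyme was 5.27-fold lower and the chaperone 3.31-fold lower on the mean. Of the 10 other tested genes of this list 0 were called lower by edgeR and 2 were higher, while 4 were lower and 2 higher at an unadjusted p under 0.05, and DESeq2 called 1 lower and 2 higher. MtnA, a metal-binding metallothionein, averaged 47.4 ± 7.19 CPM in M1BP RNAi and 4.16 ± 0.753 CPM in WT (SD, n = 3 each), with an edgeR log2 fold change of 3.19 ± 0.18 (SE) and an adjusted p of 7.09e-05 that held without any 1 library (up to 9.79e-04). Prx2, a peroxiredoxin, had an edgeR log2 fold change of 0.83 ± 0.09 and an adjusted p of 7.71e-04, a call lost without any 1 library (0.00110 to 0.00644).

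Nucleotide and cofactor synthesis gave awd and Ctps beside sgll. awd, the nucleoside diphosphate kinase that makes triphosphates, had 134, 138 and 152 CPM in the M1BP RNAi libraries, against 372, 446 and 472 CPM in the WT libraries. Ctps, the CTP synthase, had 4.54, 4.39 and 4.63 CPM in M1BP RNAi, against 14.3, 15.7 and 15.8 CPM in WT. The M1BP RNAi values of Ctps varied less than those of awd. Of 13 other tested genes 2 were called lower and 1 higher by edgeR, with a median log2 fold change of 0.71. Of these 13, 3 were lower and 7 higher at an unadjusted p under 0.05, and DESeq2 called 3 lower and 2 higher. Pdxk, the pyridoxal kinase that supplies the substrate of the sgll enzyme, averaged 6.27 ± 1.04 CPM in M1BP RNAi and 13.1 ± 0.382 CPM in WT (SD, n = 3 each), with -1.38 ± 0.13 (SE) on the log2 scale and an adjusted p of 5.46e-04 that was lost without any 1 library (0.00122 to 0.00538). Adsl, adenylosuccinate lyase of purine synthesis, had a log2 fold change of -1.17 ± 0.11 and an adjusted p of 6.14e-04, kept only in the fit without WT replicate 3 (up to 0.00483 in the others). RnrL, the large subunit of ribonucleotide reductase, went the other way, averaging 5.42 ± 1.42 CPM in M1BP RNAi and 0.258 ± 0.151 CPM in WT. Its edgeR log2 fold change was 3.98 ± 0.41 with an adjusted p of 8.00e-04, lost without any 1 library (0.00136 to 0.00635). WT replicate 2 stood at 0.0834 CPM, under the detection floor of 3 counts (0.125 CPM in that library). The size of this rise therefore rests on a WT level near the floor.

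The TOR pathway gave PRAS40, an inhibitory partner of TORC1, with 5.51, 4.48 and 5.04 CPM in the M1BP RNAi libraries, against 22.1, 22.3 and 23.2 CPM in the WT libraries. Rheb, the GTPase that activates TORC1, is not one of the 52 but was called lower, averaging 16.8 ± 0.406 CPM in M1BP RNAi and 46.9 ± 2.43 CPM in WT (SD, n = 3 each), with an edgeR log2 fold change of -1.80 ± 0.08 (SE) and an adjusted p of 2.41e-05 that held without any 1 library (up to 6.27e-04). An inhibitor and an activator of the same kinase were thus both lower. ImpL2, a secreted binding protein of insulin-like peptides, was called higher, at 193 ± 19.0 CPM in M1BP RNAi and 18.1 ± 1.14 CPM in WT, with a log2 fold change of 3.10 ± 0.09 and an adjusted p of 1.05e-05 that held without any 1 library (up to 3.43e-04). edgeR did not call the other 19 of the 21 tested genes of the list, and the median log2 fold change was -0.02. Of the 21, 5 were lower and 5 higher at an unadjusted p under 0.05, and DESeq2 called 1 lower and 2 higher. Lamtor5, a subunit of the Ragulator that tethers TORC1 to lysosomes, was a member of the 52 at 28.5% of WT.

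Membrane sorting by the ESCRT complexes gave Vps25 and Vta1. Vps25, an ESCRT-II subunit, had 1.81, 1.94 and 2.39 CPM in the M1BP RNAi libraries, against 5.73, 8.21 and 8.27 CPM in the WT libraries. Vta1, a cofactor of the Vps4 ATPase that takes ESCRT-III apart, had 3.48, 3.63 and 3.63 CPM in M1BP RNAi, against 9.88, 11.5 and 13.4 CPM in WT. Both had WT replicate 1 as the lowest WT library. Of 16 other tested ESCRT genes 1, the ESCRT-I subunit TSG101, was called lower, averaging 22.4 ± 0.902 CPM in M1BP RNAi and 45.1 ± 2.38 CPM in WT (SD, n = 3 each), with an edgeR log2 fold change of -1.33 ± 0.08 (SE) and an adjusted p of 7.82e-05, lost without M1BP RNAi replicate 2 or 3 (up to 0.00134). edgeR did not call the other 15, and the median log2 fold change was -0.17. Of the 16, 6 were lower and 0 higher at an unadjusted p under 0.05, and DESeq2 called 1 lower and 0 higher.

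Nacalpha, the alpha subunit of the nascent polypeptide-associated complex that meets new chains at the ribosome, was second of the set per kb. It had 182, 191 and 209 CPM in the M1BP RNAi libraries, against 622, 670 and 664 CPM in the WT libraries, a mean 3.36-fold lower. Of 10 other tested genes of nascent chain binding and targeting edgeR called 0, with a median log2 fold change of -0.03, while 1 was lower and 2 higher at an unadjusted p under 0.05 and DESeq2 called 1 higher. Nacalpha was thus alone in its list among the 52.

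Integrin adhesion and actin turnover held none of the 52 and was kept beside them as a muscle attachment list. Of 15 genes tested, edgeR called 2 lower and 0 higher, while 8 were lower and 4 higher at an unadjusted p under 0.05 and DESeq2 called 2 lower and 0 higher. Ilk, integrin-linked kinase, had an edgeR log2 fold change of -1.81 ± 0.10 (SE) and an adjusted p of 5.74e-05, and capt, the cyclase-associated protein of actin turnover, of -1.75 ± 0.07 and 2.41e-05. Both calls held without any 1 library (up to 9.39e-04 for Ilk and 5.85e-04 for capt), and the median over the list was -0.25. Over all 9 lists together, 163 genes outside the 52 were tested, 15 were called lower and 4 higher, and the median log2 fold change was -0.09.

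Of the remaining members, several have established roles in other processes. pHCl-1, a pH-sensitive chloride channel, was at 26.2% of WT and Cadps, a priming factor for dense core vesicles, at 30.2%. Su(var)2-HP2, a heterochromatin protein that binds HP1, was at 27.8%. nst, the phosphoacetylglucosamine mutase of amino sugar synthesis, was at 30.9% and Dip-C, a dipeptidase, at 31.1%. Cyp4p2, a cytochrome P450, was at 22.6%. Among members known by a number and not described above, CG32448, CG12099 and CG1637 were at 16.2%, 16.4% and 19.6%, CG7668, CG15922 and CG12105 at 20.4%, 21.3% and 22.5%, and CG1418, CG4789 and CG7857 at 25.3%, 29.3% and 31.0%. In total 23 of the 52 were named only by a CG number, and all 52 are annotated as protein coding.

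The members differed in how even they were within a condition. The SD was 2.43% to 53.2% of the mean over the M1BP RNAi libraries and 1.75% to 35.5% over the WT libraries, with medians of 10.3% and 11.1%. Su(var)2-HP2 had 4.09, 1.91 and 1.62 CPM in M1BP RNAi, against 9.63, 8.00 and 9.74 CPM in WT. pHCl-1 had 49.6, 29.9 and 28.8 CPM in M1BP RNAi, against 156, 163 and 93.7 CPM in WT. In both genes M1BP RNAi replicate 1 was the high one. That replicate was the highest M1BP RNAi library for 27 of the 52, and in 6 it reached 1.4 times the mean of the other two or more. In 4 of those (Gpdh1, pHCl-1, CG42784 and CG46308) WT replicate 3 also lay at 0.75 or less of WT replicates 1 and 2, and pHCl-1 had the narrowest gap of the set, its highest M1BP RNAi library standing at 53.0% of its lowest WT library. CG46308 lies entirely in exons of CG42784 on the same strand, so these count as 1 locus.

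Because WT replicate 3 stood apart, each member was also set against that library alone. The M1BP RNAi mean was 3.90% to 38.5% of WT replicate 3, with a median of 22.6%, against 2.47% to 37.7% of the mean of WT replicates 1 and 2, with a median of 24.1%. Of the 52, 48 were still at least 3-fold lower, and the others were CG18343, CG42784, CG46308 and pHCl-1. A lower level against each WT library was required by the choice of the genes, so only the sizes are described. Lamtor5 and Cadps lay on the other side, with WT replicate 3 at 1.77 and 1.75 times WT replicates 1 and 2.

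**Figure D4:**
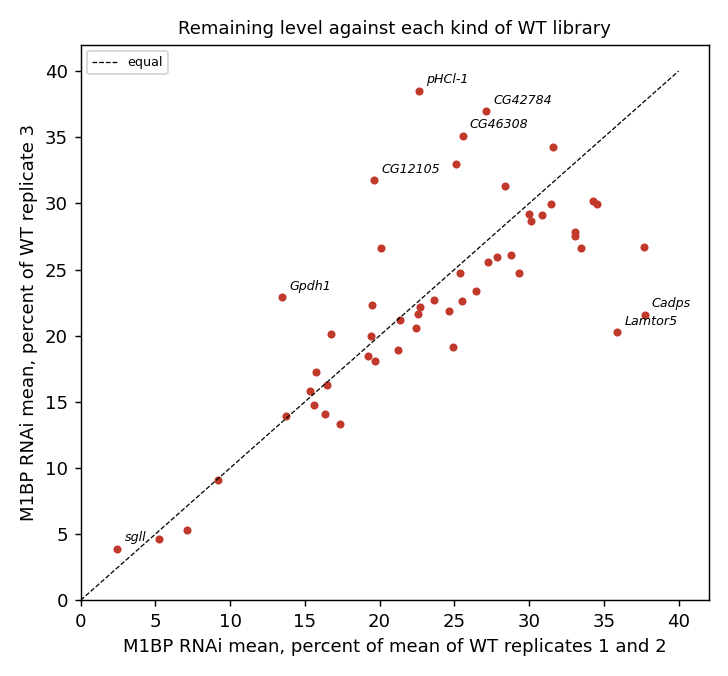
M1BP RNAi mean as percent of WT replicate 3 alone (vertical axis) against M1BP RNAi mean as percent of the mean of WT replicates 1 and 2 (horizontal axis), 1 point per transcript, with the dashed line marking equality. Most points follow the line, and all lie at or under 38.5% on the vertical axis and 37.7% on the horizontal axis. pHCl-1, CG12105, CG42784, CG46308 and Gpdh1 are among the points above the line, Lamtor5 and Cadps among those below it.

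Position and structure were not used to choose the genes. By chromosome arm, 16 of the 52 were on 3L (30.8%) and 15 on 2R (28.8%), where 19.3% and 20.4% of nuclear genes at 5 CPM or more lay. There were 9 on 3R (17.3%, beside 24.8% of those nuclear genes), 6 on X (11.5%, beside 17.4%), 5 on 2L (9.62%, beside 16.9%) and 1 on chromosome 4 (1.92%, beside 1.18%). The 5 on 2L include CG42784 and CG46308, which count as 1 locus. The median exon length was 1644 bases in the set and 2461 bases over the 5249 genes, and the median gene span 1924 bases and 3591 bases. These are descriptions with no test. Exons of 6 members (sgll, CG42784, CG46308, Ctps, Dip-C and dare) overlap an exon of another gene on the same strand, so that their reads may be shared. Starts of opposite-strand genes pointing away lay within 500 bases for 12 of the 52 (23.1%) and for 2012 of the 5249 (38.3%). At 250 bases the shares were 13.5% and 19.3%, and at 1000 bases 32.7% and 49.8%.

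Of the 12 genes that share a start region with a member, 8 were tested and 2 were called lower by edgeR. Over all 8806 genes tested 2.88% were called lower. The log2 fold changes of the 8 ran from -2.70 to 0.65 with a median of -0.41. With so few partners nothing is read from the count. One was beta3GalTII, a galactosyltransferase gene with 288 bases between its start and that of Gle1. It had 0.724, 0.424 and 0.383 CPM in the M1BP RNAi libraries, against 2.52, 2.83 and 2.73 CPM in the WT libraries, with an edgeR log2 fold change of -2.70 ± 0.27 (SE) and an adjusted p of 6.78e-04 that was lost without any 1 library (0.00109 to 0.00590). Its level lies under the 5 CPM limit, so it could not become a member. The other was Dis3l2, an exoribonuclease gene with 21 bases between it and thoc7. Its values were 13.3, 12.7 and 11.3 CPM in M1BP RNAi, against 26.1, 26.3 and 27.4 CPM in WT, with a log2 fold change of -1.42 ± 0.08 and an adjusted p of 9.47e-05, lost without WT replicate 1 or M1BP RNAi replicate 2 (up to 0.00141). The 6 tested partners that were not called were those of CG32163, CG32267, CG4789, Cadps, Dip-C and Nup214. The other 4 partners, those of CG5641, Dcr-1, Gpdh1 and emei, had too few counts to be tested.

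Some members lay side by side. On 2R, Vps25 (chr2R:8625451-8626180) and Gle1 (chr2R:8627900-8630186) are 1719 bases apart, with beta3GalTII between them, so that 3 adjoining genes stood at 27.6%, 18.9% and 15.5% of WT. Also on 2R, Coop (9.13% of WT) and CG1620 (15.5%) follow each other on the minus strand with 1216 bases between. On 3L, emei (20.4%) and Sod1 (19.0%) converge with 163 bases between their ends. CG18343 (32.4%) overlaps SkpB by 30 bases on the other strand, which stood at 39.0% of WT and was not called (edgeR adjusted p = 0.00353). CG32163 (23.3%) lies 1045 bases from UQCR-C2, 1 of the 9 genes left out by name.

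**Figure D5:**
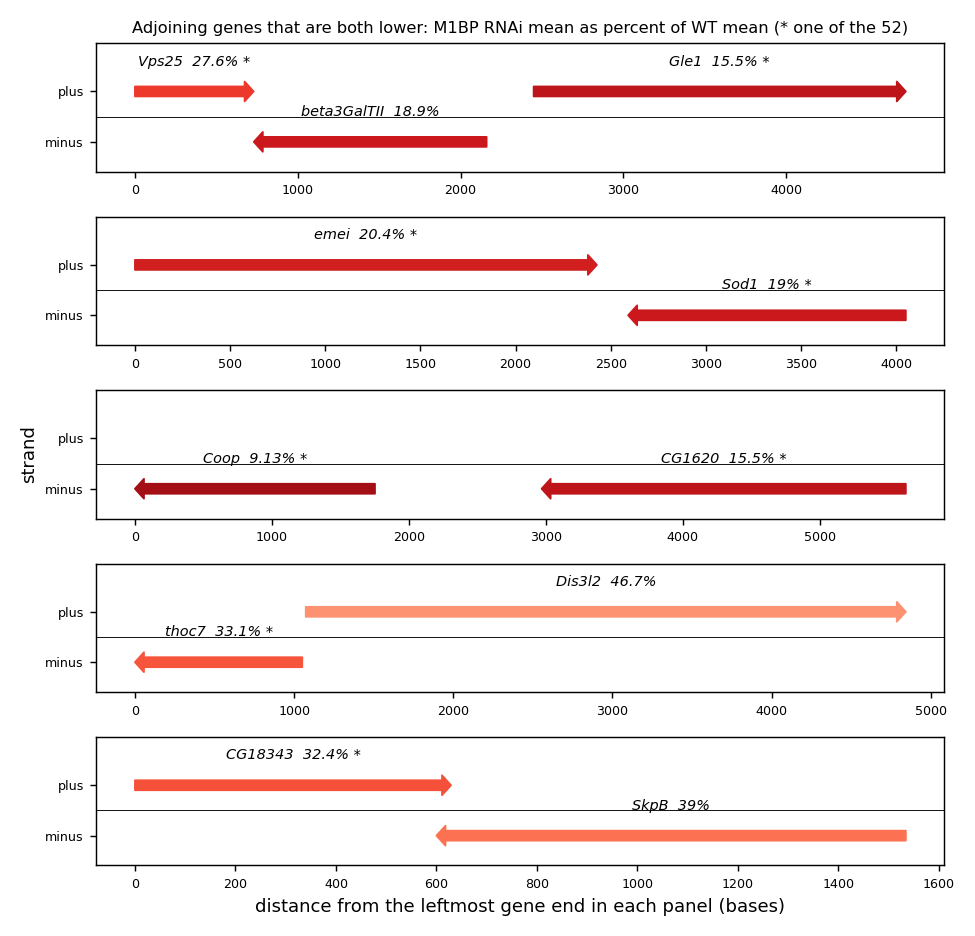
Gene maps of 5 places where adjoining genes were both lower on the mean, with distance in bases from the leftmost gene end on the horizontal axis and strand on the vertical axis. Arrows point in the direction of transcription and are labelled with the M1BP RNAi mean as percent of the WT mean, darker where it is lower, and an asterisk marks the 52 transcripts. beta3GalTII at 18.9% lies between Vps25 at 27.6% and Gle1 at 15.5%.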

How the data were processed

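The authors deposited raw read counts per gene for the 6 libraries, with the exon coordinates and exon length of each gene (dm6). The libraries were stranded and poly(A)-selected. The submitters' processing notes name bcl2fastq 2.17.1.14, Subread 2.0.3 with featureCounts, and the deposited headers name uniquely mapped reads. The strand setting of the counting is not given in the sources used here. The table also held 1 line naming no gene, with 0 counts. A deposited table of the authors' own DESeq2 comparison (log2 fold changes, standard errors, p-values) was not used. Groups and replicate numbers came from the sample titles. The replicates were separate RNA preparations, and p-values measure only the spread between these samples.

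CPM over nuclear genes was computed from the counts and set the membership. The background fit was edgeR 4.0.16 (R 4.3.3), a quasi-likelihood test with TMM scaling on the 8806 genes its default expression filter kept, adjusted by Benjamini-Hochberg. Genes were called at an adjusted p of 0.001 or less and at least 1.5-fold, the thresholds of the study. The code was tested on simulated counts. DESeq2 1.42.0, RLE scaling, no filter, a replicate block and leaving out each library were alternatives.

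Members and lists were chosen with earlier results of these data known. Values in every library are given for the 10 members of lowest ratio, the 8 of highest WT CPM per kb and those in a list, and the members named for their spread or position were chosen after their values were seen. Of other genes, M1BP, those just outside the ratio, up to 2 called genes per direction in each list by adjusted p, and called head-to-head partners are named. Symbols came from the name table, which matched 17358 of 17494 genes, and older symbols from RefSeq synonyms. Of the names in the lists 1 was not matched. All 52 members had the same start and end in the reference annotation. Promoter sequences were not analysed here.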

Additional observations from a re-analysis of the deposited data

How the results depend on the processing

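The rule gave 52 genes. Dividing by the sum over all genes, mitochondrial genome included, gave 33, a limit of 2-fold gave 111 and one of 4-fold gave 28. TMM-scaled library sizes gave 73, WT minimums of 1 and 10 CPM gave 69 and 43, and leaving out single libraries gave 50 to 58. With WT replicate 3 as the only WT library, an alternative chosen after seeing the data, 65 genes met the rule and 48 of the 52 were among them. Across the table edgeR called 254 genes lower and 194 higher. DESeq2 called 477 lower and 572 higher, and dropping the fold minimum at an adjusted p of 0.05 gave 1489 and 1212. Leaving out single libraries gave 44 to 231 lower and 26 to 246 higher. Of the genes of the lists outside the 52, edgeR called 15 lower and 4 higher, DESeq2 26 and 13, the looser threshold 47 and 28, and fits without 1 library 3 to 16 and 2 to 3. RLE scaling and leaving out mitochondrial genome genes kept the counts within 1.5-fold. Head-to-head neighbours within 250 bases numbered 7 and within 1000 bases 17, beside 12 within 500 bases.

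With the replicate number as a block, edgeR called 116 genes lower and 75 higher, and of the lists 12 lower and 2 higher. The titles do not say whether the numbers pair the samples. The deviations of same-numbered libraries correlated at 0.29, -0.08 and 0.26 over 8799 genes. M1BP RNAi replicates 1 and 3 correlated best with their own number, and replicate 2 with WT replicate 3 (0.18). Deviations from means of 3 libraries cannot decide whether the numbers pair the samples. The block took the call from M1BP, beta3GalTII, Pdxk, Adsl, Tret1-1, Prx2 and RnrL. The planned search of promoters for motifs was not run, because promoter sequences were not analysed here. Levels under 0.0741 to 0.125 CPM, 3 counts in a library, cannot be told from 0 at this depth.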

Other observations

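Among the 12 genes kept out because the groups overlapped, several had a single high WT library. CG14960 had 1.92, 2.48 and 2.68 CPM in the M1BP RNAi libraries, against 0.123, 0.125 and 26.2 CPM in the WT libraries. Crys, the drosocrystallin gene of the eye lens, had 13.9, 12.3 and 7.81 CPM in M1BP RNAi, against 9.36, 110.6 and 2.69 CPM in WT. The cuticle gene Cpr72Ec had 6.65, 5.51 and 3.63 CPM in M1BP RNAi, against 4.49, 42.8 and 1.16 CPM in WT, and chp, a photoreceptor surface protein gene, had 1.59, 1.06 and 1.06 CPM in M1BP RNAi, against 0.494, 16.5 and 0.157 CPM in WT. Crys, Cpr72Ec and chp were thus all high in WT replicate 2 alone. resilin, the elastic cuticle protein gene, had 11.9, 9.29 and 12.1 CPM in M1BP RNAi, against 6.74, 25.3 and 70.8 CPM in WT. For resilin, WT replicates 2 and 3 both lay above every M1BP RNAi library. These genes were chosen after their values were seen, and their part in the values of the 52 transcripts was not tested.

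Of the 9 genes that met the thresholds and were left out by name, HemK1 had 1.70, 1.30 and 1.59 CPM in M1BP RNAi, against 33.3, 36.1 and 36.3 CPM in WT, and l(2)k14505 had 7.71, 7.45 and 8.55 CPM in M1BP RNAi, against 79.3, 80.3 and 99.0 CPM in WT. Acadvl, the very long chain acyl-CoA dehydrogenase of fatty acid oxidation, had 24.8, 21.6 and 25.6 CPM in M1BP RNAi, against 192, 193 and 212 CPM in WT. Bcs1, an assembly factor of complex III, had 11.6, 11 and 14.4 CPM in M1BP RNAi, against 70.5, 67.8 and 76.5 CPM in WT. WT replicate 3 was the highest WT library for each of these 4.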
